A study of Mus musculus with 12 samples.

Results

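Mybl1, Tcfl5, Rfx2, Rfx3, Sox30 and Crem encode 6 transcription factors of the meiotic and early postmeiotic program of male germ cells. They were taken by symbol from the gene rows of the deposited count table, where they are 6 of 20620 genes, and all of them had counts in each of the 12 libraries and passed the filter on low counts in both assays. The libraries came from whole testes of C57BL/6 mice at postnatal day 16, either Mael+/- or Mael-/-. RNA and ribosome footprints were sequenced from each of 3 extracts per genotype, which gave 4 groups of 3 libraries. All testes had been collected in cycloheximide, which stalls ribosomes on the mRNA. Mael-/- mice lack Maelstrom, a protein required for making the piRNAs that silence transposons in germ cells, and the heterozygous animals served as the controls, so no wild-type library was compared. The labels do not say how many animals went into an extract, and p-values therefore measure the spread between these extracts.

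The study used these libraries to ask how RNA and its translation differ in testes where the retrotransposon LINE-1 has escaped control. The transcription factors bear on how far the germ cells of each testis had moved through the meiotic program. A-MYB, the product of Mybl1, is switched on in spermatocytes and activates meiotic genes and the precursors of pachytene piRNAs. TCFL5 is a basic helix-loop-helix protein of spermatocytes that works together with A-MYB. RFX2 and RFX3 bind X-box sequences and act on genes of cilia and of the sperm tail, RFX2 mainly in spermatocytes and round spermatids. SOX30 and the activator forms of CREM drive genes of round spermatids.

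Mael itself was measured as the check of the genotype. Its RNA was counted 5045, 4314 and 3800 times in Mael+/- replicates 1 to 3 and 1, 2 and 0 times in Mael-/- replicates 1 to 3. Its footprints were counted 1294, 660 and 863 times in Mael+/- and 0, 0 and 7 times in Mael-/- replicates. Every library matched its label.

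The library total of gene counts ran from 13697267 to 27462358 for RNA and from 7609932 to 13233565 for footprints. Mael+/- replicate 1 stood apart from the other extracts in both assays. The summed level of 12 pachytene marker genes, in CPM (counts scaled by the gene total of the library and its TMM normalization factor), was 1316 in its RNA against 495.8 and 503.9 in the other Mael+/- libraries and 404.5 to 478.0 in Mael-/-. In footprints the same sum was 2060 in Mael+/- replicate 1 against 755.7 and 874.2 in the other Mael+/- libraries and 639.1 to 749.1 in Mael-/-. The summed level of 7 leptotene and zygotene markers was also highest there, at 932.9 CPM of RNA against 358.8 to 550.3 in the other libraries. Round spermatid markers summed to between 6.29 and 11.96 CPM in all RNA libraries, and Prm1, a protamine that defines spermatids, had no count in any of the 12 libraries. Spermatogonia, Sertoli, Leydig and macrophage markers were present in all libraries. In bulk testis a lower level can mean fewer cells of a type or less RNA per cell, and the 2 cannot be told apart here. The genotype differences of the 6 genes and of the gene lists are therefore given with and without Mael+/- replicate 1.

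Promoters are shown for Tcfl5 and Rfx2, because these were the genes whose footprints were lower in Mael-/- at an unadjusted p under 0.05. RefSeq promoter windows of GRCm38.p6, the assembly also called mm10, were at hand for 4 of the 6 genes, namely Tcfl5, Rfx2, Rfx3 and Sox30. Capitals mark matches to a MYB pattern (AACNGNC on either strand) or to an RFX half-site pattern (GTTGCC on either strand). The Tcfl5 sequence is chr2:180642692-180642941 and the Rfx2 sequence is chr17:56831009-56831258. Both are read from the minus strand, 5′ to 3′, and both end at the base before the annotated start.
Tcfl5: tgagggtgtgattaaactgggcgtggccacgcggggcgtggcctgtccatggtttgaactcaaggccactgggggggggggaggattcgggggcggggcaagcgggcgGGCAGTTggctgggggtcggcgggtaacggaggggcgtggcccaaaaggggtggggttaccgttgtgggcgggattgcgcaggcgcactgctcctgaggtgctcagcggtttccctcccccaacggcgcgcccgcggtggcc
Rfx2: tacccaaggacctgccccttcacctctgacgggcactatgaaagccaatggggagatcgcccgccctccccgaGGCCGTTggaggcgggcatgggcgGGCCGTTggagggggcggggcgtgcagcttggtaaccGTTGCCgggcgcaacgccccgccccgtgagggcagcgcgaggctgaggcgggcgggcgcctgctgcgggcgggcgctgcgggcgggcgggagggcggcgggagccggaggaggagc

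The Tcfl5 sequence held a MYB match, GGCAGTT, 142 bases before the start. The Rfx2 sequence held the MYB match GGCCGTT at 177 and at 153 bases before the start, and the RFX match GTTGCC at 116 bases before the start. Over the whole 300-base windows, which run to 50 bases past the start, the MYB pattern was found in 3 of the 4 promoters of these genes and in 32.8% of all 32851 promoters. The RFX pattern was found in 2 of the 4, Rfx2 and Rfx3, against 12.5% of all promoters. No window of the 4 held the CRE pattern TGACGT, the SOX pattern AACAAT or the E-box CACGTG, which 7.51%, 10.7% and 7.15% of all promoters hold. A match is a run of letters and not a shown binding site.

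In RNA, the 6 genes had lower fitted means in Mael-/- than in Mael+/- testes, by between 0.12 and 0.96 on the log2 scale, and for no gene did the difference pass the adjusted threshold of 0.05. Rfx2 differed most, followed by Sox30 and Tcfl5, and Rfx3 least. The highest value of every gene was that of Mael+/- replicate 1. Without that library the signs divided, with 3 genes lower and 3 higher in Mael-/-. In footprints 5 of the 6 genes were lower in Mael-/-, and Tcfl5 was the gene whose genotype groups did not overlap.

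Mybl1 (Entrez gene 17864, chr1:9667407-9700439, minus strand) encodes the A-MYB activator. Its RNA measured 124.9, 61.0 and 71.4 CPM in Mael+/- replicates 1 to 3 and 79.4, 78.4 and 60.6 CPM in Mael-/- replicates 1 to 3. Apart from Mael+/- replicate 1, the libraries of both genotypes lay in the same range. The log2 fold change of Mael-/- over Mael+/- was -0.24 ± 0.23 (SE) by edgeR's quasi-likelihood test, with an adjusted p of 0.982. It was 0.13 ± 0.12 without Mael+/- replicate 1, so the sign rested on that library. Footprints of Mybl1 measured 66.5, 41.0 and 37.6 CPM in Mael+/- and 46.0, 47.9 and 40.8 CPM in Mael-/- libraries. Again the first Mael+/- replicate was the highest, and the other 5 lay between 37.6 and 47.9 CPM. The footprint difference was -0.11 ± 0.19 on the log2 scale with all libraries and 0.20 ± 0.11 without Mael+/- replicate 1.

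Tcfl5 (Entrez gene 277353, chr2:180621956-180642691, minus strand) was measured in RNA at 144.8, 94.0 and 86.0 CPM in Mael+/- and at 87.0, 81.9 and 81.6 CPM in Mael-/- libraries. The groups overlapped, since Mael+/- replicate 3 lay below Mael-/- replicate 1. The log2 fold change was -0.37 ± 0.17 with an unadjusted p of 0.0546 and an adjusted p of 0.937 by edgeR. Footprints of Tcfl5 measured 80.5, 76.7 and 59.5 CPM in Mael+/- and 46.6, 55.2 and 50.9 CPM in Mael-/-, or 72.2 ± 11.2 against 50.9 ± 4.31 CPM (SD, n = 3). Every Mael-/- library lay below every Mael+/- library. In footprints the log2 fold change was -0.51 ± 0.13 (95% interval -0.79 to -0.22), with an unadjusted p of 0.00247 and an adjusted p of 0.694 by edgeR over all 13500 genes tested. It was -0.42 ± 0.12 without Mael+/- replicate 1, with an adjusted p of 0.469 by edgeR, and the groups still did not overlap, as for 10.5% of all genes in that setting. The footprint difference of Tcfl5 was the least dependent on that library among the genes with a difference over 0.1, but it did not pass the test across genes.

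Rfx2 (Entrez gene 19725, chr17:56775897-56831008, minus strand) had the widest range. Its RNA measured 38.6, 11.2 and 13.4 CPM in Mael+/- and 11.9, 10.8 and 9.81 CPM in Mael-/- libraries. Mael+/- replicate 1 was 2.88-fold above the next library, and Mael+/- replicate 2 lay within the Mael-/- values. In RNA the log2 fold change was -0.96 ± 0.40 (95% interval -1.85 to -0.06), with an unadjusted p of 0.0382 and an adjusted p of 0.905 by edgeR, and it was -0.19 ± 0.15 without Mael+/- replicate 1. Footprints of Rfx2 measured 50.5, 25.6 and 21.0 CPM in Mael+/- and 18.8, 21.2 and 14.1 CPM in Mael-/-. Mael+/- replicate 3 lay just below Mael-/- replicate 2, so the groups overlapped. The footprint difference was -0.84 ± 0.29 on the log2 scale with an unadjusted p of 0.0145 and an adjusted p of 0.998, and it was -0.36 ± 0.17 without Mael+/- replicate 1.

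Rfx3 (Entrez gene 19726, chr19:27761721-28014669, minus strand), the paralog of Rfx2 that also serves ciliated somatic cells, varied least. Its RNA measured 25.3, 18.8 and 19.6 CPM in Mael+/- and 22.1, 18.8 and 17.8 CPM in Mael-/- libraries. Footprints of Rfx3 measured 26.6, 24.2 and 25.6 CPM in Mael+/- and 25.3, 28.8 and 23.3 CPM in Mael-/- libraries. Both genotypes covered the same range in footprints, and Rfx3 was the gene for which Mael+/- replicate 1 was not the highest footprint library. Markers of multiciliated cells, 4 in all, summed to 24.9, 13.1 and 11.8 CPM of RNA in Mael+/- and 9.86 to 12.5 CPM in Mael-/- libraries. The 3 of them that were tested differed, and none was called. Their log2 fold changes in RNA and footprints were -2.55 and -2.65 for Tekt1, 0.12 and 0.49 for Foxj1, and -0.02 and -0.24 for Ccno. The sum therefore does not stand for each marker. For Rfx3 the log2 fold change was -0.12 ± 0.15 in RNA and 0.02 ± 0.12 in footprints, and 0.02 ± 0.13 and 0.05 ± 0.13 without Mael+/- replicate 1. The 95% interval in footprints ran from -0.25 to 0.29.

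Sox30 (Entrez gene 214105, chr11:45979069-46017992, plus strand) had the fewest RNA counts of the 6, from 80 to 319 per library. Its RNA measured 13.8, 5.41 and 5.63 CPM in Mael+/- and 5.82, 6.94 and 5.83 CPM in Mael-/- libraries. Mael+/- replicate 1 was 1.99-fold above the next library, while the other 2 Mael+/- libraries lay below all 3 Mael-/- libraries, as for 10.3% of all genes. For Sox30 RNA the log2 fold change was -0.41 ± 0.33 with all libraries and 0.17 ± 0.18 without Mael+/- replicate 1. Footprints of Sox30 measured 37.6, 17.9 and 13.2 CPM in Mael+/- and 16.8, 13.7 and 12.6 CPM in Mael-/- libraries. In footprints Mael+/- replicate 1 was 2.10-fold above the next library and the remaining libraries were mixed. The footprint difference was -0.66 ± 0.32 with all libraries (adjusted p of 0.998 by edgeR) and -0.09 ± 0.18 without Mael+/- replicate 1.

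Crem (Entrez gene 12916, chr18:3266354-3337773, minus strand) encodes both repressor forms and activator forms, which the gene-level counts do not separate. Its RNA measured 28.9, 14.6 and 23.4 CPM in Mael+/- and 14.4, 19.6 and 21.0 CPM in Mael-/- libraries. Footprints of Crem measured 23.2, 9.96 and 20.6 CPM in Mael+/- and 10.1, 15.3 and 19.2 CPM in Mael-/- libraries. In both assays Mael+/- replicate 1 was the highest library and Mael+/- replicate 3 the next, and the lowest 2 were Mael+/- replicate 2 and Mael-/- replicate 1, so the genotypes overlapped. For Crem the log2 fold change was -0.27 ± 0.23 in RNA and -0.30 ± 0.30 in footprints, and -0.04 ± 0.18 and -0.09 ± 0.29 without Mael+/- replicate 1.

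**Figure D1:**
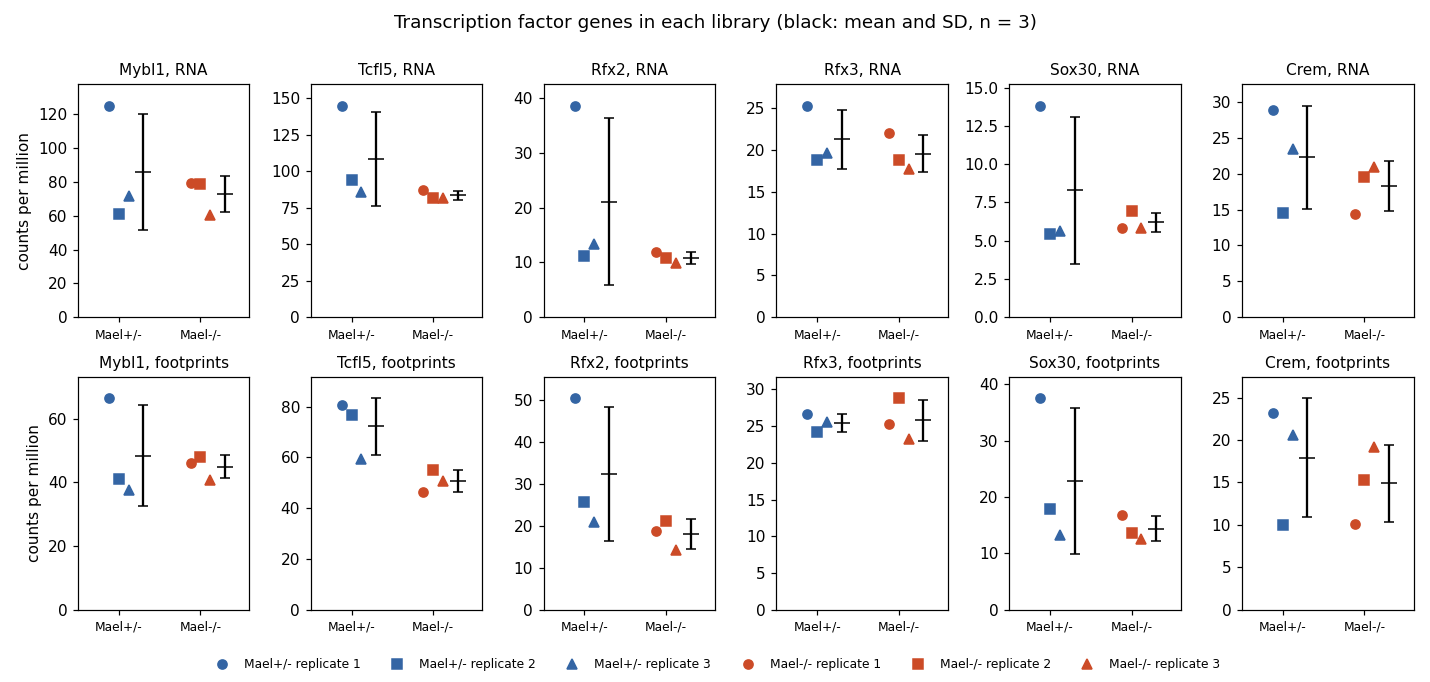
Level of each transcription factor gene in CPM (vertical axis, from 0) in the 12 libraries, RNA above and footprints below, with symbols for replicates 1 to 3 of Mael+/- (blue) and Mael-/- (orange) and the mean ± SD of 3 libraries in black. Mael+/- replicate 1 was the highest RNA library for all 6 genes, and Tcfl5 footprints were the values with no overlap between genotypes.

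None of the 6 genes was called at an adjusted p under 0.05 in RNA, where 0.116% of 14685 genes tested were called, or in footprints, where 0.0593% of 13500 were called. With so few calls among all genes, the absence of calls among 6 says little about them. Rfx2 was the gene with an unadjusted p under 0.05 and a lower RNA level in Mael-/-, as 3.08% of all genes were. In footprints Tcfl5 and Rfx2 met the same criterion, against 2.79% of all genes. All Mael-/- libraries lay below all Mael+/- libraries for none of the 6 genes in RNA, against 5.03% of all genes, and for Tcfl5 in footprints, against 4.85% of all genes. The median log2 fold change of the 6 genes was -0.32 in RNA and -0.40 in footprints, while that of all genes was 0.00 and -0.01. Without Mael+/- replicate 1 the median of the 6 genes was -0.01 in RNA and -0.09 in footprints.

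**Figure D2:**
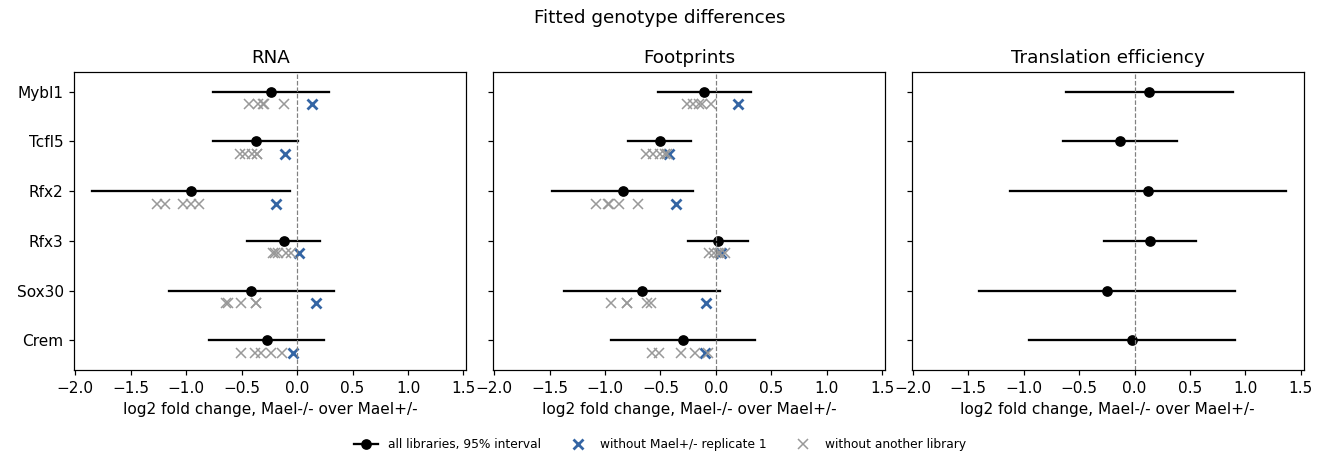
Log2 fold change of Mael-/- over Mael+/- (horizontal axis) for the 6 genes in the panels RNA, Footprints and Translation efficiency, with 95% intervals (black). Crosses, in the RNA and Footprints panels alone, are values with each library of the assay left out in turn (blue for Mael+/- replicate 1). The blue cross was the highest of the RNA values for all 6 genes, and the footprint value of Tcfl5 without that library was -0.42.

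Much of the spread of these genes lay in Mael+/- replicate 1. That library was at least 1.5-fold above the next library for 4 of the 6 genes in RNA, namely Mybl1, Tcfl5, Rfx2 and Sox30. In RNA 3.81% of all genes had that pattern. In footprints it was at least 1.5-fold above the next library for Rfx2 and Sox30, against 3% of all genes. The standard deviation of the log2 level over the 12 libraries, each centred on the mean of its assay, was 0.62 for Rfx2, 0.50 for Sox30, 0.42 for Crem, 0.31 for Mybl1, 0.29 for Tcfl5 and 0.14 for Rfx3. The median over genes was 0.14. Rfx2 was thus among the most variable genes, with 1.04% of genes above it, and Rfx3 varied as much as the median gene.

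The summed pachytene markers were also highest in Mael+/- replicate 1, in both assays. Of the 12 pachytene markers 9 were tested in RNA and 6 in footprints, and all of these had lower means in Mael-/-, with medians of -1.19 and -0.83 on the log2 scale. Without Mael+/- replicate 1 the medians were -0.43 and -0.25, again with 9 of 9 and 6 of 6 lower. In that setting 3 of the 6 transcription factor genes were lower in RNA and 4 in footprints. The pachytene markers Acr, Pgk2 and Adam3 did not pass the filter on low counts in RNA, so their genotype difference was not tested. They had at most 3 counts in each Mael-/- RNA library, and none of the 12 was that low in all 3 Mael+/- RNA libraries. In footprints Adam3 had at most 3 counts in each Mael+/- library too. Of the pachytene markers Hspa2 was called in RNA without Mael+/- replicate 1, at -0.43 ± 0.09 (adjusted p of 0.0498 by edgeR). That fit called 64 of 14876 genes, against 17 of 14685 with all libraries. The 7 leptotene and zygotene markers were divided, with 4 lower and 3 higher in Mael-/- RNA and a median of -0.28. Without Mael+/- replicate 1 they turned the other way in RNA, with 5 of 7 higher and a median of 0.37, and their footprint median went from -0.35 to 0.01. Meiob and Rad51ap2 were then called higher in Mael-/- RNA, by 0.71 ± 0.15 and 1.12 ± 0.18 on the log2 scale (adjusted p of 0.0492 and 0.00584 by edgeR). These 3 markers are named because their values were seen, and none of them was called with all libraries.

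Set against the summed pachytene markers of the same library, the log2 level of Rfx2 RNA was -5.09, -5.47 and -5.23 in Mael+/- and -5.13, -5.47 and -5.37 in Mael-/- libraries, a range shared by both genotypes. Set against the leptotene and zygotene markers, Rfx2 was lower in every Mael-/- library, by 0.59 in RNA and 0.37 in footprints on average. Of all genes, 1.35% in RNA and 0.667% in footprints had that pattern. The gap in footprints was small, with the highest Mael-/- value at -5.068 and the lowest Mael+/- value at -5.046. The other genes of the 6 overlapped between genotypes against these markers in both assays. The level of Rfx3 RNA relative to pachytene markers was -5.70, -4.72 and -4.68 in Mael+/- and -4.24, -4.67 and -4.51 in Mael-/- libraries, so its excess in Mael+/- replicate 1 was smaller than that of the markers. Mybl1, Rfx3 and Sox30 RNA were higher in every Mael-/- library relative to pachytene markers, as were 39.2% of all genes, and all 3 overlapped between genotypes relative to leptotene and zygotene markers. The part that the makeup of the testes had in the differences of the transcription factors was not tested.

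**Figure D3:**
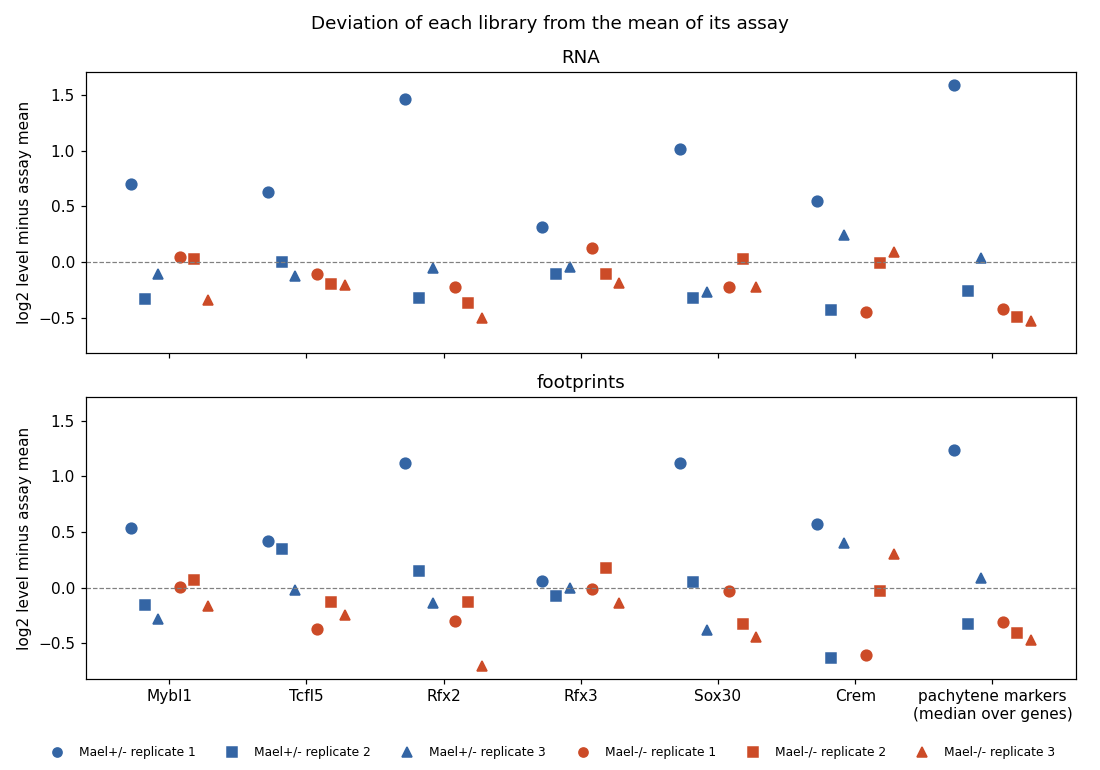
Log2 level of each gene in each library minus its mean over the 6 libraries of the assay (vertical axis), RNA above and footprints below, with the median over the tested pachytene markers at the right. Mael+/- replicate 1 was 1.59 above the RNA mean for the pachytene markers, and its RNA excess was visible in all 6 genes, from 0.32 for Rfx3 to 1.46 for Rfx2.

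Levels between the genes were compared per kilobase, of exons for RNA and of coding sequence for footprints, from the merged RefSeq models. Tcfl5 had the highest level in both assays and both genotypes, with 49.0 ± 14.4 and 37.8 ± 1.39 CPM per kb of RNA in Mael+/- and Mael-/- (SD, n = 3). Mybl1 came next with 11.5 ± 4.61 and 9.78 ± 1.42 CPM per kb. Rfx2 followed with 6.28 ± 4.54 and 3.24 ± 0.318 CPM per kb, and then Crem with 3.70 ± 1.195 and 3.04 ± 0.573 CPM per kb. Sox30 had 1.96 ± 1.13 and 1.46 ± 0.152 CPM per kb, and Rfx3 had 1.44 ± 0.239 and 1.33 ± 0.151 CPM per kb. In Mael+/- RNA only Tcfl5 stood clear of its neighbour in this order, and from Mybl1 downwards the ranges of neighbours overlapped. Within each single Mael+/- RNA library, though, the order from Tcfl5 to Mybl1, Rfx2, Crem and Sox30 held. Sox30 and Rfx3 were near equal in Mael+/- replicates 2 and 3, at 1.278 against 1.275 and 1.328 against 1.329 CPM per kb. In Mael-/- RNA the ranges of Rfx2 and Crem overlapped, as did those of Sox30 and Rfx3, and the other neighbours were separate. Merging exons lengthens a gene with alternative ends, such as Rfx3 with 14749 exon bases and 2436 coding bases, and so lowers its RNA value.

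Footprints per kilobase of coding sequence were again highest for Tcfl5, at 49.0 ± 7.60 in Mael+/- and 34.5 ± 2.93 CPM per kb in Mael-/-. Mybl1 had 21.4 ± 7.01 and 19.9 ± 1.63 CPM per kb. The other 4 genes lay close together, between 9.73 and 15.0 CPM per kb in Mael+/- and between 6.11 and 10.7 CPM per kb in Mael-/- on average. In Mael+/- the order was Rfx2, Crem, Rfx3 and Sox30, with overlapping ranges. In Mael-/- Rfx2 came after Crem and Rfx3, at 8.36 ± 1.66 CPM per kb. There the ranges of Crem, Rfx3 and Rfx2 overlapped, as did those of Rfx2 and Sox30, although Rfx2 lay above Sox30 within each Mael-/- library.

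**Figure D4:**
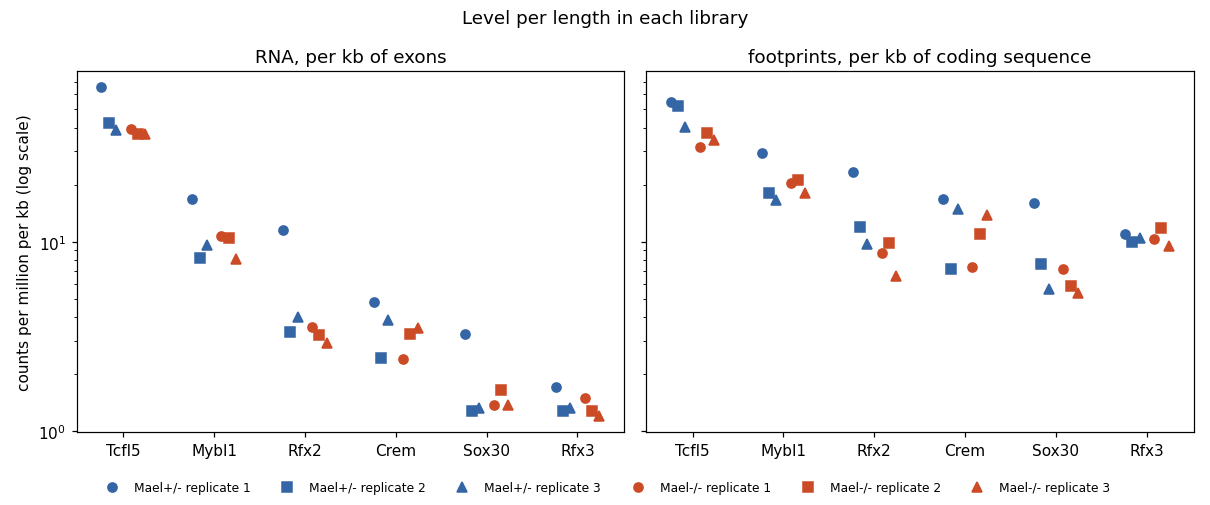
Level per kilobase of exons (RNA, left) and of coding sequence (footprints, right) in CPM per kb on a log scale, for each library. Tcfl5 lay above the other 5 genes in all 12 libraries, and the range from the highest to the lowest gene was narrower in footprints than in RNA.

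The ratio of footprint CPM to RNA CPM differed between the genes, and its ranges overlapped between the genotypes for each gene. Footprint CPM over RNA CPM of the same extract lay between 0.526 and 0.673 for Mybl1 and between 0.535 and 0.816 for Tcfl5. It was 0.682 to 0.917 for Crem and 1.05 to 1.53 for Rfx3. It was 1.31 to 2.30 for Rfx2 and 1.97 to 3.30 for Sox30. The ranges of Mybl1 and Sox30 were thus separate in all 6 extracts, with the higher ratio in Sox30. RNA was counted over whole mRNAs and footprints over coding sequence, so a gene with long untranslated ends has a lower ratio by construction. The coding share of the merged exons was not used to correct it, and the order of the genes depends on this. Per kilobase in Mael+/-, the mean RNA of Rfx3 was below that of Sox30, at 1.44 against 1.96 CPM per kb. The footprint mean of Rfx3 was higher, at 10.45 against 9.73 CPM per kb. In Mael+/- replicate 1 Sox30 exceeded Rfx3 in both assays, at 3.264 against 1.713 for RNA and 15.98 against 10.93 for footprints. In replicates 2 and 3 their RNA was near equal and Rfx3 had more footprints. The order of the RNA means thus rested on replicate 1, and the footprint ranges overlapped.

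**Figure D5:**
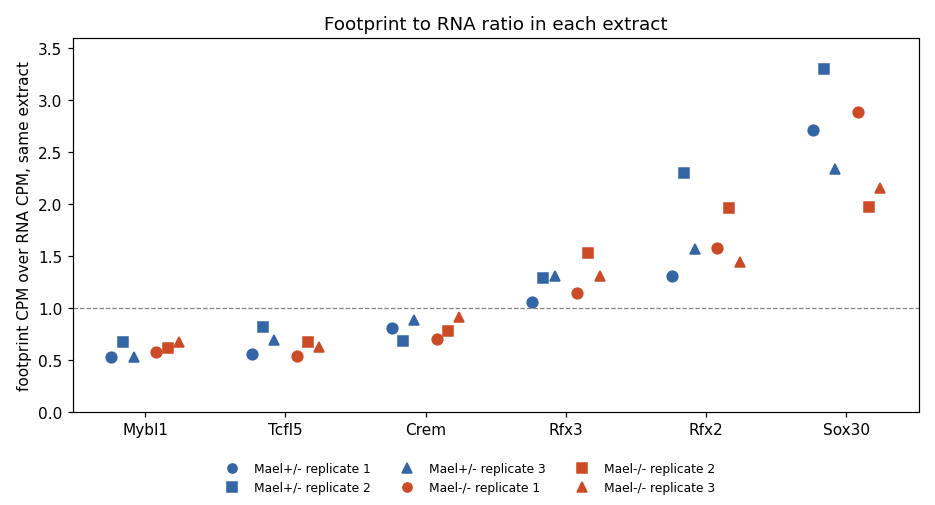
Footprint CPM divided by RNA CPM of the same extract (vertical axis, from 0) for the 6 genes in the 3 Mael+/- and 3 Mael-/- extracts, with a dashed line at 1. The ratio is not corrected for exon or coding length. Mybl1, Tcfl5 and Crem lay below 1 and Rfx3, Rfx2 and Sox30 above 1 in every extract, and the genotypes overlapped for each gene.

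Translation efficiency was tested in a single fit of the 12 libraries, by asking whether the genotype difference in footprints departed from that in RNA. That fit treated the RNA and footprint libraries of an extract as independent. The log2 change in Mael-/- was 0.13 ± 0.35 for Mybl1, -0.13 ± 0.24 for Tcfl5, 0.12 ± 0.58 for Rfx2, 0.14 ± 0.19 for Rfx3, -0.25 ± 0.54 for Sox30 and -0.02 ± 0.43 for Crem. No gene of the 6 passed, and neither did any of the 13448 genes tested (0%), of which 53 had an unadjusted p under 0.05 in edgeR. DESeq2 also called 0 genes, with 28 at an unadjusted p under 0.05. With the 2 assays of each extract paired in the fit, 279 genes had an unadjusted p under 0.05 in edgeR and again 0 were called. The SE was then smaller for each gene, at 0.11 for Mybl1, 0.13 for Tcfl5, 0.18 for Rfx2, 0.14 for Rfx3, 0.18 for Sox30 and 0.15 for Crem. In the paired fit the interval was narrowest for Mybl1, from -0.12 to 0.36, and widest for Rfx2 and Sox30, at -0.33 to 0.40 and -0.63 to 0.11.

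Among 11 piRNA genes described as A-MYB targets, Mael itself was lower in Mael-/- by the test in both assays and none of the other 10 passed it. All 10 had lower fitted means in Mael-/- in RNA and in footprints, with medians of -0.46 and -0.45 on the log2 scale. Of all genes, 50.4% and 52.5% had lower means. Mov10l1, an RNA helicase of piRNA production, measured 356.4, 233.5 and 216.4 CPM of RNA in Mael+/- and 206.5, 195.7 and 190.2 in Mael-/- libraries. Tdrd9, a helicase with a Tudor domain that takes part in transposon silencing, measured 187.4, 140.6 and 126.2 CPM in Mael+/- and 111.1, 99.7 and 109.0 CPM in Mael-/- libraries. Both had less RNA in every Mael-/- library than in every Mael+/- library, as did 5.03% of all genes. Tdrd1, a Tudor protein of the germ granule, measured 169.5, 128.7 and 121.4 CPM in Mael+/- and 122.3, 118.4 and 113.5 CPM in Mael-/- libraries, with overlap. The adjusted p values of these 3 were 0.863, 0.609 and 0.944 by edgeR. Without Mael+/- replicate 1, 9 of the 10 genes were still lower in each assay, with medians of -0.17 in RNA and -0.15 in footprints. Mybl1 itself had a fold change above 0 in that setting, as given above.

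The 13 other members of the same DNA-binding families showed no common direction. In RNA 7 had lower and 6 higher means in Mael-/-, with a median of 0.00 on the log2 scale, and in footprints 4 of the 11 tested were lower. None passed the test. In RNA 5 were lower and 8 higher without Mael+/- replicate 1, with a median of 0.03, and in footprints again 4 of 11 were lower. Rfx4, named because its value was seen, was then called lower in Mael-/- RNA (adjusted p of 0.0209 by edgeR). Of 14876 genes tested in that setting 64 were called. The counts of Rfx4 were 158, 20 and 34 in Mael+/- and 0, 3 and 3 in Mael-/- libraries. Tcf3, a widely expressed basic helix-loop-helix protein, measured 200.4 ± 34.2 CPM in Mael+/- RNA and 200.1 ± 17.6 in Mael-/- RNA. Creb1, a relative of Crem found in most tissues, measured 114.5 ± 7.95 and 113.5 ± 6.82 CPM, and Rfx7 measured 54.6 ± 12.97 and 53.1 ± 6.11 CPM. For each of these 3 the difference was far within the spread of the libraries.

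Of 20 cofactors and other regulators of transcription in spermatocytes and spermatids, 18 were tested in each assay and none passed. In RNA 14 had lower and 4 higher means in Mael-/-, with a median of -0.16 on the log2 scale, and in footprints 13 were lower, with a median of -0.22. Without Mael+/- replicate 1 the medians were -0.06 in both assays. The most abundant in RNA were Taf7l and Taf4b, germ cell forms of subunits of the general factor TFIID, and Sirt1, a deacetylase. Taf7l RNA measured 316.3 ± 29.6 CPM in Mael+/- and 376.5 ± 21.6 CPM in Mael-/-, with an adjusted p of 0.879 by edgeR. Every Mael-/- RNA library, from 356.7 CPM, lay above every Mael+/- library, up to 336.7 CPM. The share of all genes with that pattern was not counted. Footprints of Taf7l measured 291.5 ± 39.5 and 294.2 ± 6.77 CPM. Taf4b RNA measured 215.9 ± 24.9 and 221.0 ± 13.2 CPM, and Sirt1 RNA 115.6 ± 24.1 and 110.8 ± 14.9 CPM.

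Most of the spermatid genes described as dependent on Crem, Rfx2 or Sox30 were at or near the limit of detection, and 6 of them were also among the round spermatid markers. Of 20 listed, 9 passed the filter on low counts in RNA and 3 in footprints, and none passed the test. The median log2 fold change of the 9 in RNA was -0.21, and 0.22 without Mael+/- replicate 1. Tnp2, Prm1, Prm2, Smcp, Actl7a and H1fnt had no RNA count in any of the 6 RNA libraries. A single count of 0 leaves room for an expected count of up to about 3 in that library. Hist1h1t, a histone of spermatocytes, was the most abundant, with 142.6, 59.0 and 55.1 CPM of RNA in Mael+/- and 67.8, 84.7 and 68.5 CPM in Mael-/- libraries. Its value was highest in Mael+/- replicate 1. The other 2 Mael+/- libraries lay below all Mael-/- libraries, as for Sox30 RNA and for 10.3% of all genes. Spaca1 and Izumo1, both of the sperm acrosome, measured 5.67 ± 1.03 and 1.59 ± 0.400 CPM of RNA in Mael+/- and 5.93 ± 0.942 and 1.26 ± 0.270 CPM in Mael-/-.

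Genes with the most similar pattern were found by the root-mean-square difference of log2 levels, centred on each assay, over the 12 libraries and 12537 genes. Rnf32, Lca5l and Phf7 were closest to Rfx2, the nearest at 0.134. Phf7, a chromatin reader of male germ cells, was also among the listed regulators. The genes closest to Mybl1 were Cep290, Ccp110 and Fbxo30, the nearest at 0.0749. Among those closest to Tcfl5 were Ankrd42 and 8430427H17Rik, at 0.0800 and 0.0812, and those closest to Sox30 were 1700028K03Rik, Ubxn11 and Mlc1, the nearest at 0.121. For Rfx3 they were Lims2, Tada3 and Syvn1, the nearest at 0.0590. Crem had no gene so close, with Slco2a1 at 0.172 followed by Immp1l and Eif4e at 0.251 and 0.252. Among the 6 genes themselves, Rfx2 and Sox30 were each nearest to the other at 0.246, with 44 genes nearer to Rfx2 and 125 nearer to Sox30 than that. For Mybl1, Tcfl5, Crem and Rfx3, 977, 1674, 2632 and 7442 genes lay nearer than the nearest of the 6. The pattern of Crem lay farthest from the others, with its nearest, Mybl1, at 0.397. These distances describe libraries that share extracts, and were not tested.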

How the data were processed

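RNA and ribosome footprints were sequenced from P16 testes in 4 groups of 3 libraries. Per the submitters' processing notes and the study's methods, the authors aligned reads to mm10 with STAR 2.6.0c, after removal of ribosomal DNA with Bowtie 1.2.2 for footprints, and counted with featureCounts (Subread 1.6.4), using the whole mRNA for RNA libraries and coding sequence alone for footprints. The deposited table holds raw counts, not normalized. Collapsing of duplicate reads is not given in the sources used here. The deposited DESeq2 tables hold the authors' fold changes and p-values and were not used. Repeat rows, 7.65 to 13.6% of the counts of a library, were left out of library totals.

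Genes were tested with edgeR 4.0.16 (limma 3.58.1, R 4.3.3): TMM factors within an assay, filterByExpr, quasi-likelihood F-tests, and Benjamini-Hochberg adjustment over all genes, calling at 0.05. Each assay was fitted over its 6 libraries. CPM are counts scaled by gene total and TMM factor, errors of fold changes are SE, and log2 levels used a prior count of 2. The code of the fits was tried on simulated counts with known changes. These had the same dispersion for all genes, no outlying library and no shared extracts, unlike the data. Alternatives were DESeq2 1.42.0, other size factors, other filters, a replicate term and leaving out libraries. Per the study's methods, RNA and footprints came from aliquots of the same extracts. That libraries with the same number share an extract was inferred from the replicate numbers. The deviations of such libraries from the group means correlated at 0.805, 0.667 and 0.726 in Mael+/- and 0.263, 0.284 and 0.273 in Mael-/- extracts over 11235 genes. The Mael-/- values were no higher than the largest between same-numbered extracts of different genotypes, 0.295 in RNA and 0.291 in footprints. The values given for leaving out Mael+/- replicate 1 in the gene lists were added after seeing the data.

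The 6 genes and the lists were chosen with earlier results of these data known. Named are the 6 genes, Mael, the called genes of each pathway list, or without any the 3 with the highest mean RNA CPM (in the A-MYB list Mael was set aside as the mutated gene, a choice made later), and the 3 genes nearest to each of the 6 among those with at least 20 counts on average in each assay. For Tcfl5, 1 of these 3 is not reported here. Promoter sequences and gene models are RefSeq's for GRCm38.p6.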

Additional observations from a re-analysis of the deposited data

How the results depend on the processing

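None of the 6 genes was called in any contrast under any alternative, and the lowest adjusted p was 0.160, for Tcfl5 footprints without Mael+/- replicate 3. Of 288 values recomputed for single members, 29 changed sign, 27 of them with a library left out. The count of genes called moved with the test and the filter. In RNA it was 17, and 58 by DESeq2, 4 with a mean of at least 50 counts and 2 to 64 with a library left out, 64 without Mael+/- replicate 1 and 2 without Mael-/- replicate 1. In footprints it was 8, and 21 by DESeq2, 1 with a mean of at least 50 counts and 2 to 17 with a library left out, 17 without Mael+/- replicate 1 and 2 without Mael+/- replicate 3. The cause was not tested. For translation efficiency it was 0 throughout.

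Same-numbered extracts of the 2 genotypes were not taken as pairs, since not every correlation of their deviations was over 0.1, with values of 0.295, -0.03 and 0.204 in RNA and 0.087, 0.291 and 0.061 in footprints. A replicate block across genotypes gave 50 calls in RNA and 23 in footprints, none among the 6 genes. Pairing the assays of an extract as a block gave 0 calls of translation efficiency, and turned the log2 change of Crem to 0.007, as DESeq2 turned it to 0.004.

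With a library left out, the number of the 6 genes lower in Mael-/- RNA was 3 to 6, 3 without Mael+/- replicate 1. The log2 fold change in RNA then ran from -0.43 to 0.13 for Mybl1, from -0.22 to 0.017 for Rfx3 and from -0.64 to 0.17 for Sox30, each highest without Mael+/- replicate 1. In footprints it ran from -0.26 to 0.20 for Mybl1 and from -0.066 to 0.085 for Rfx3. Translation efficiency, with a library left out, ran from -0.24 to 0.44 for Mybl1, -0.40 to 0.015 for Tcfl5, -0.65 to 0.60 for Rfx2, -0.001 to 0.24 for Rfx3, -0.83 to 0.31 for Sox30 and -0.30 to 0.21 for Crem. With both libraries of an extract left out, it changed sign for Tcfl5 at 0.008 (Mael+/- replicate 2), for Rfx2 at -0.171 and -0.009 (Mael+/- replicate 1, Mael-/- replicate 2) and for Crem at 0.047, 0.068 and 0.005 (Mael+/- replicate 3, Mael-/- replicates 1 and 2). Without Mael+/- replicate 1, an alternative chosen after seeing the data, Sox30 RNA was higher in all Mael-/- libraries, so that 1 gene in place of 0 did not overlap, in a setting where 10.3% of all genes lay higher without overlap. Sox30 rests on 80 to 319 RNA counts and Crem on 77 to 219 footprints per library, which limits their precision.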
